A study of Homo sapiens with 4 samples.

Results

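The genes described here hold gastric epithelial cells to each other and give them their inner scaffold, together with the transcription and splicing factors that switch cells between an epithelial and a mesenchymal state. The set was chosen by name, with earlier results of these data known. It holds 40 of the 23362 genes in the deposited expression table. They are 6 adherens junction genes, 11 tight junction genes, 6 desmosome genes and 6 keratin and cornified envelope genes. The others are 7 mesenchymal genes or factors of the epithelial-mesenchymal transition (EMT), and 4 epithelial regulators. All 40 were found in the table. Poly(A) RNA of MKN28, a human gastric adenocarcinoma cell line, was sequenced from 4 groups of cells, with a single library per group. Cells were made with a retroviral tet-on vector, which doxycycline switches on, carrying luciferase (Luc, the control), HA-tagged wild-type KIAA1324 (WT), KIAA1324 with the asparagines of 3 putative N-glycosylation sites replaced by glutamine (3NQ), or KIAA1324 without its transmembrane domain (ΔTM). KIAA1324 is a transmembrane protein, and the study asked what its N-glycans do for its action in gastric cancer cells. Whether and for how long doxycycline was given before RNA was taken is not given in the sources used here.

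KIAA1324 itself was listed at 2.86 FPKM in Luc against 11185 in WT, 8197 in 3NQ and 0 in the ΔTM-labelled library. FPKM, fragments per kilobase of transcript and per fixed number of mapped fragments, is scaled for gene length and library size. The value of 0 goes against the label, so that sample is given below only as the library carrying the ΔTM label. With 1 library per group there is no replicate check and no p-value, and the depth of each library is unknown. Differences were measured as the log2 ratio of FPKM + 1 to that in Luc, over the 11769 genes that reached 1 FPKM in any library. A gene was called higher or lower at 1.5-fold, a log2 ratio of 0.58. Adding 1 understates the difference of low genes. All 3 comparisons share the single Luc library, so a high or low value in Luc moves all of them. Where values follow each other without names below, FPKM are in the order Luc, WT, 3NQ, ΔTM-labelled library, and log2 ratios to Luc in the order WT, 3NQ, ΔTM-labelled library. MKN28 was epithelial by its markers: EPCAM, CDH1, KRT8, KRT18, KRT19 and CLDN7 summed to between 8001 and 13731 FPKM per library. Of 6 fibroblast markers only COL1A1 passed the filter, at 12.1 to 15.3 FPKM, and of 5 leukocyte markers only CD68, at 4.44 to 5.84 FPKM, while CD3E was listed at 0. None of the 3 endothelial markers in the table passed, and KDR was listed at 0.

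Epithelial cells are joined by 3 kinds of junction. At adherens junctions E-cadherin binds the same protein on the neighbouring cell and is tied to actin through catenins. At tight junctions claudins and occludin seal the space between cells and are held by cytoplasmic scaffolds, and at desmosomes cadherins are tied through plakins to the keratin filaments. In EMT the SNAI, ZEB and TWIST factors repress such genes, and SNAI and ZEB proteins bind the E-box, the letters CACCTG on either strand. In simple epithelium such as that of the stomach, KRT8 pairs with KRT18 to form the filament.

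E-box sites near the starts of these genes are shown because they hold the letters that SNAI and ZEB proteins, members of the set themselves, recognise. RefSeq promoter windows of 300 bases, from 250 before to 50 after the start (GRCh38.p14), were matched by symbol to 23 of the 40 genes, and 5625 of all 27305 windows, 20.6%, held CACCTG or its reverse complement CAGGTG. With 17 genes unmatched, no share over the set is given. The matched windows held 11 sites, and those of the desmosome genes, of the scaffold TJP1 and of ZEB1 are printed. The sites of CLDN3, CLDN18, OCLN and KRT20 are not. Each site was placed on GRCh37, the build of the expression table, by its only exact match, and capitals mark the E-box. In the GENCODE annotation of that build the DSP sites lie in an untranslated exon at chr6:7541714-7541743 and chr6:7541807-7541836, plus strand. The DSG2 sites lie upstream of the gene at chr18:29077896-29077925 and chr18:29078012-29078041, plus strand. The others also lie upstream of their genes in GENCODE: DSC2 at chr18:28682523-28682552, minus strand, TJP1 at chr15:30261323-30261352, minus strand, and ZEB1 at chr10:31607277-31607306, plus strand. The gene rows of the expression table have other starts, 7541808 for DSP and 29078006 for DSG2, so that by those rows the first DSP site lies before the gene and the second DSG2 site within it.
DSP, first site: gggcggcgggcgCAGGTGgggaggggcggc
DSP, second site: gaagaaaccggcCAGGTGtggcctaggcgc
DSG2, first site: acgtcacggtccCAGGTGcgagtgcgagcg
DSG2, second site: tcgcggcggccaCACCTGgagccgcgcctt
DSC2: tcaactttctgtCAGGTGggcctcaggcag
TJP1: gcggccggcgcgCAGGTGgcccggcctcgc
ZEB1: ccgaggtgacagCAGGTGagggccgggtgc
A match is a run of letters and does not show that a factor was bound. The grainyhead-like motif AACCGGTT, its own reverse complement, was in none of the 23 windows and in 32 of the 27305 (0.117%).

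Across the 40 genes, 31 passed the filter on low values, and 9 did not. KRT8, KRT18 and the regulator GRHL2 were the only genes called lower in WT, 3 of the 31, where 3.34% of all genes tested were called lower. None was called higher in WT, where 3.36% of all genes were. In 3NQ the scaffold TJP3 was the only gene called lower, beside 2.57% of all genes, and none was called higher, beside 1.77%. In the ΔTM-labelled library none was called in either direction, where 1.57% of all genes were called lower and 1.54% higher. These are counts over 31 genes in single libraries. In WT the median log2 ratio over these 31 was −0.06, beside −0.0049 over all genes tested. In 3NQ it was −0.13 beside −0.038, and for the ΔTM-labelled library −0.11 beside −0.060. Ratios lay within 0.25 of 0 for 22 of the 31 genes in WT, 23 in 3NQ and 26 in the ΔTM-labelled library. Over all 11769 genes tested they did so for 7688, 8458 and 9155.

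**Figure D1:**
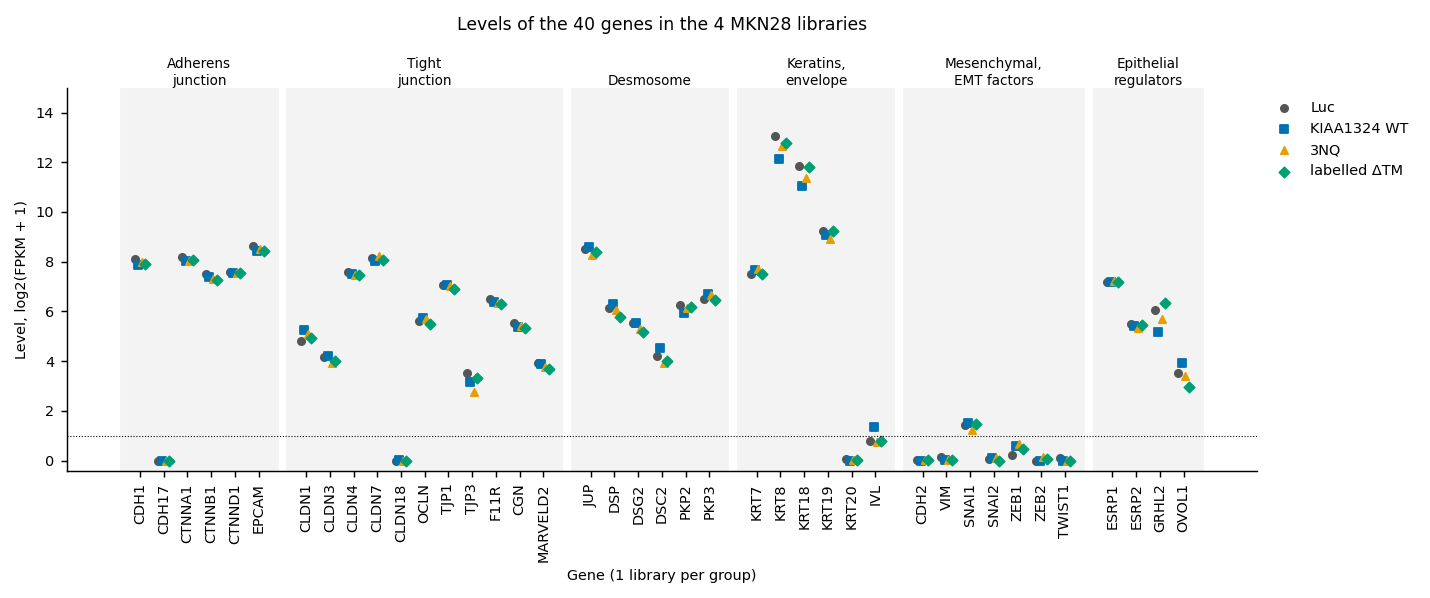
Level of the 40 genes by class as log2(FPKM + 1), with 1 marker per library and no error bars; the dotted line marks 1 FPKM. KRT8 and KRT18 lie highest, at 2115 to 8501 FPKM, most junction genes lie between 10 and 400 FPKM, and the mesenchymal genes and EMT factors lie under 2 FPKM.

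The adherens junction genes other than CDH17 were abundant, and none was called in any comparison. CDH1, which encodes E-cadherin (ENSG00000039068, chromosome 16, 68771128 to 68869445 on GRCh37), was at 272 FPKM in Luc against 233 in WT, 250.5 in 3NQ and 241 in the ΔTM-labelled library. EPCAM, an adhesion molecule of epithelial cells (ENSG00000119888, chromosome 2, 47572297 to 47614740), was at 391, 349, 360.4 and 345 FPKM in the same order. Both were highest in Luc and within 0.25 on the log2 scale of it elsewhere: the log2 ratios of CDH1 were −0.22, −0.12 and −0.18, and those of EPCAM −0.17, −0.12 and −0.18. CTNNA1, the alpha-catenin that reaches actin, was at 295, 263, 259 and 268 FPKM. CTNNB1, the beta-catenin that links it to E-cadherin and also acts in Wnt signalling, was at 183, 168, 155 and 154 FPKM. CTNND1, the catenin that keeps E-cadherin at the membrane, was at 193, 184, 187 and 187 FPKM. The 5 genes were all highest in Luc, with median log2 ratios of −0.16, −0.12 and −0.18. Of the 11769 genes tested, 5988, 6706 and 7412 were below Luc, following the same order of comparisons. How many of all genes were highest in Luc was not computed. These ratios share the single Luc library, and its part in the lower values was not tested. CDH1 was 1.49 times CTNNB1 in Luc against 1.38 in WT, 1.61 in 3NQ and 1.56 in the ΔTM-labelled library. CDH17, the cadherin of intestinal epithelium, was listed at 0 in all 4 libraries.

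**Figure D2:**
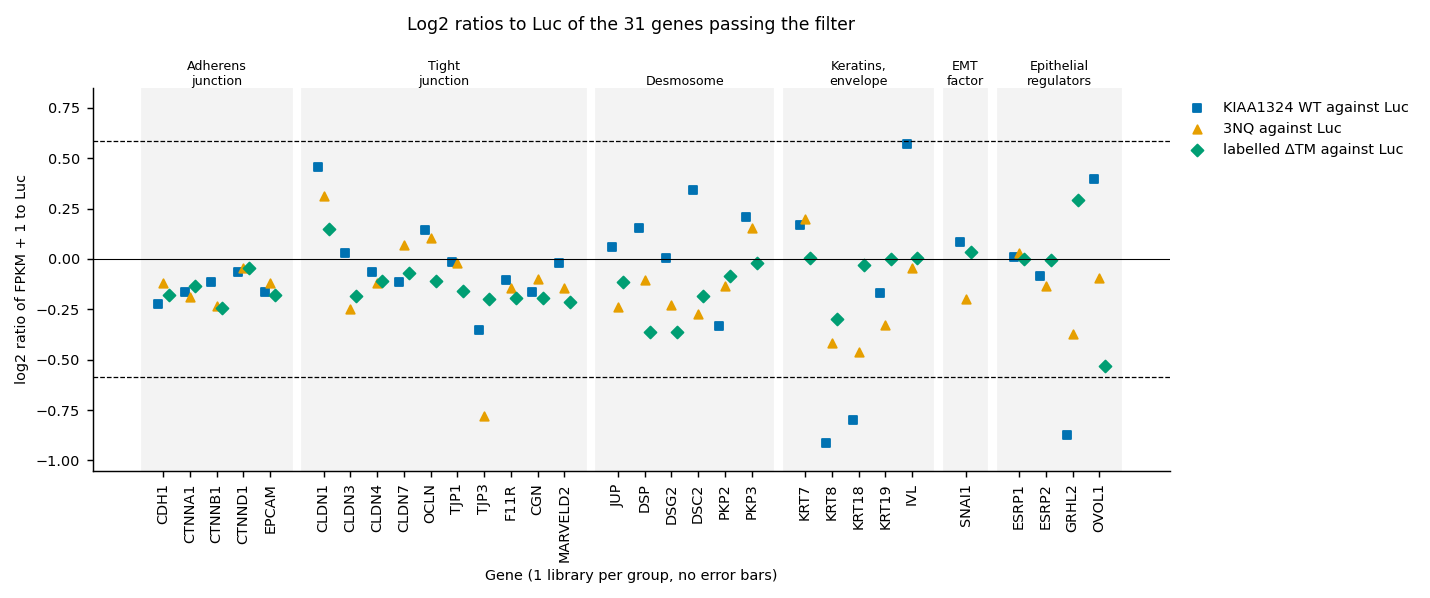
Log2 ratio of FPKM + 1 to that in Luc for the 31 genes passing the filter, with 1 marker per library and gene and no error bars. Dashed lines mark 1.5-fold, and the markers past them are KRT8, KRT18 and GRHL2 in WT and TJP3 in 3NQ.

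The tight junction genes differed more among themselves than between libraries. Among the claudins, which form the seal, CLDN7 was at 281 FPKM in Luc against 259 in WT, 295 in 3NQ and 267 in the ΔTM-labelled library. CLDN4 was at 189, 181, 174 and 175 FPKM, and CLDN3, at 17.0, 17.4, 14.2 and 14.9 FPKM, was the lowest of the 4 claudins of the set that passed the filter. CLDN1, which seals the skin barrier as well as simple epithelium, was the only claudin of the set with a higher value than Luc in all 3 other libraries, at 26.8, 37.2, 33.5 and 29.9 FPKM. Its log2 ratios were 0.46, 0.31 and 0.15, all short of 1.5-fold. CLDN18, the claudin of gastric epithelium, was listed at 0 in Luc, 3NQ and the ΔTM-labelled library and at 0.027 FPKM in WT. OCLN, which encodes occludin, was at 47.8, 52.9, 51.5 and 44.3 FPKM. MARVELD2, which holds the corners where cells meet, was at 14.1, 13.9, 12.6 and 12.0 FPKM.

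Of the proteins that hold the seal from within, TJP1, the main scaffold, was at 132 FPKM in Luc against 131 in WT, 131 in 3NQ and 118 in the ΔTM-labelled library. CGN, which encodes cingulin, was at 44.9, 40.1, 41.8 and 39.1 FPKM, and F11R, a junctional adhesion molecule, at 88.3, 81.9, 79.7 and 76.9 FPKM. F11R has a second, overlapping row of 46.2, 45.7, 38.9 and 37.3 FPKM, so how its reads were divided is uncertain. TJP3, a scaffold related to TJP1 (ENSG00000105289, chromosome 19, 3708107 to 3750811), was at 10.5 FPKM in Luc against 8.02 in WT, 5.70 in 3NQ and 9.04 in the ΔTM-labelled library. It was lowest in 3NQ, and its log2 ratios were −0.35, −0.78 and −0.20. With a pseudocount of 5 in place of 1 the ratio in 3NQ was −0.54, short of 1.5-fold. The 10 tight junction genes passing the filter lay at a median log2 ratio of −0.042 for WT, −0.11 in 3NQ and −0.17 in the ΔTM-labelled library. In that library 9 of the 10 were below Luc, beside 7412 of the 11769 genes tested.

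At the desmosome the WT value was the highest for 5 of the 6 genes of the set, though for DSG2 it was level with Luc. DSC2, a desmosomal cadherin, was at 17.4 FPKM in Luc against 22.3 in WT, 14.2 in 3NQ and 15.2 in the ΔTM-labelled library. DSG2, its partner cadherin, was at 45.2, 45.4, 38.5 and 35.0 FPKM. DSP, which encodes desmoplakin, the plakin that grips keratin, was at 70.0, 77.9, 65.0 and 54.2 FPKM, so that it too was highest in WT and lowest in the ΔTM-labelled library. JUP, which encodes plakoglobin, was at 367, 382, 311 and 339 FPKM, but its row spans KRT17 and EIF1, so part of its value is uncertain. Of the plakophilins, which bridge cadherins and desmoplakin, PKP3 was at 88.6, 103, 98.8 and 87.5 FPKM. PKP2 went the other way, at 76.0, 60.1, 69.2 and 71.6 FPKM. In WT 5 of the 6 were above Luc (median log2 ratio 0.11), beside 5777 of the 11769 genes tested. In 3NQ 5 of the 6 were below Luc (−0.18), beside 6706 of all genes. In the ΔTM-labelled library all 6 were below Luc (−0.15), beside 7412 of all genes. No desmosome gene was past 1.5-fold in these comparisons. Of the genes with E-box sites printed above, DSP, DSG2 and DSC2 had log2 ratios of 0.15, 0.0049 and 0.34 in WT. In 3NQ theirs were −0.10, −0.23 and −0.27, and in the ΔTM-labelled library −0.36, −0.36 and −0.18. The log2 ratios of TJP1 were −0.016, −0.020 and −0.16, and ZEB1 did not pass the filter. JUP, whose matched window held no E-box, had log2 ratios of 0.057, −0.24 and −0.11, and PKP2 and PKP3 had no matched window. A link between these sites and the ratios was not tested.

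The lowest log2 ratio of the set was that of KRT8 in WT, and its partner KRT18 was called lower there too. KRT8 (ENSG00000170421, chromosome 12, 53290977 to 53343738, minus strand) was at 8501 FPKM in Luc against 4509.8 in WT, 6362 in 3NQ and 6912 in the ΔTM-labelled library. KRT18 (ENSG00000111057, chromosome 12, 53342655 to 53346685, plus strand) was at 3684, 2115, 2673 and 3610.2 FPKM. Both were lowest in WT, next lowest in 3NQ and highest in Luc. WT held 53.1% of the KRT8 and 57.4% of the KRT18 of Luc, 3NQ held 74.8% and 72.6%, and the ΔTM-labelled library held 81.3% and 98.0%. Their log2 ratios were −0.91 and −0.80 in WT, −0.42 and −0.46 in 3NQ, and −0.30 and −0.03 in the ΔTM-labelled library. In WT, KRT8 was number 88 and KRT18 number 126 from the lowest ratio of the 11769 genes. With the mean of 3NQ and the ΔTM-labelled library as control in place of Luc, the ratios in WT were −0.56 and −0.57, just short of 1.5-fold.

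The pair was among the most abundant genes. By FPKM, KRT8 was number 2 of all genes in Luc against 5 in WT, 3 in 3NQ and 1 in the ΔTM-labelled library. The pair together made up 2.12% of the summed FPKM in Luc against 1.17% in WT, 1.54% in 3NQ and 1.88% in the ΔTM-labelled library. KIAA1324 alone made up 1.98% in WT and 1.40% in 3NQ, and its part in the lower keratin values was not tested. KRT8 was 2.31 times KRT18 in Luc against 2.13 in WT, 2.38 in 3NQ and 1.91 in the ΔTM-labelled library. Of the 51 genes with a mean of at least 1000 FPKM, a limit chosen after the values were seen, 5 were called lower in WT (9.80%). The 5 were KRT8, KRT18, IMMP1L (9820, 5656, 22515 and 18.2 FPKM), AC025262.1 (3267, 0, 4270 and 2872) and AL022328.1 (1469, 578, 1360 and 1157). The share of 9.80% thus includes the pair itself. Of the 1034 genes with a mean of at least 100 FPKM, 27 were called lower in WT (2.61%). The rows of KRT8 and KRT18 overlap by 1084 bases on opposite strands and whether counting used the strand is not given in the sources used here, and both genes have processed pseudogenes, so reads could be divided between rows.

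Of the other keratins, KRT19, a type I keratin of simple epithelium, was at 601 FPKM in Luc against 534 in WT, 478 in 3NQ and 600.4 in the ΔTM-labelled library. Its log2 ratios were −0.17, −0.33 and −0.0013. KRT7, a type II keratin, was at 180.2, 203, 207 and 181 FPKM, higher than Luc in WT and 3NQ with log2 ratios of 0.17 and 0.20. Neither reached 1.5-fold. KRT20, an intestinal keratin, was under 0.045 FPKM in every library. IVL, which encodes involucrin of the cornified envelope (ENSG00000163207, chromosome 1, 152881021 to 152884362), was at 0.740, 1.58, 0.684 and 0.748 FPKM. It passed the filter only through WT, and its log2 ratio there was 0.57, or 1.00 with a pseudocount of 0.1. The summed FPKM of the 6 genes was 12967 in Luc against 7364 in WT, 9722 in 3NQ and 11304 in the ΔTM-labelled library, nearly all of it KRT8 and KRT18. The median log2 ratio of the 5 genes past the filter was −0.17, −0.33 and −0.0013. With a filter at 5 FPKM, which leaves out IVL, it was −0.48 in WT, and with no filter it was −0.19 in 3NQ.

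**Figure D3:**
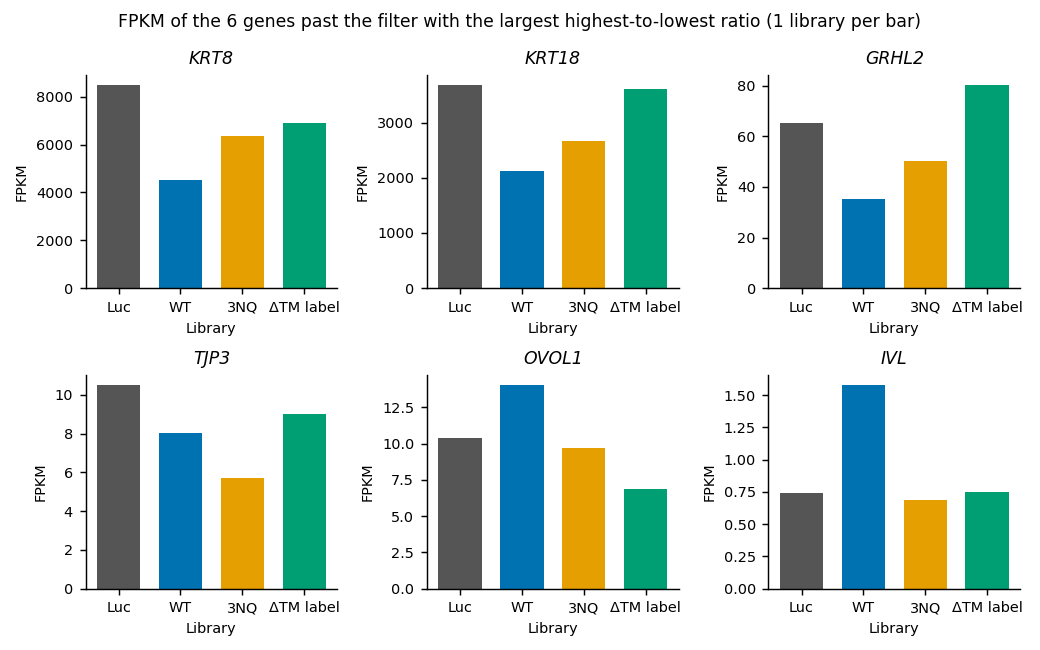
FPKM in each library for the 6 genes past the filter with the largest ratio of highest to lowest value, 1 library per bar, each axis from 0. KRT8, KRT18 and GRHL2 are lowest in WT, TJP3 is lowest in 3NQ, and OVOL1 and IVL are highest in WT. IVL passed the filter only through WT and so had to be highest there.

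Of the 7 mesenchymal genes and EMT factors of the set, 6 were below 1 FPKM in all 4 libraries. VIM, the vimentin filament of mesenchymal cells (ENSG00000026025), was at 0.0937 FPKM in Luc against 0.0207 in WT, 0.0176 in 3NQ and 0.0193 in the ΔTM-labelled library. CDH2, which encodes N-cadherin, did not exceed 0.0235 FPKM. SNAI2, an E-box repressor, was at 0.0505, 0.0839, 0.0731 and 0 FPKM. ZEB1, the zinc finger repressor of E-cadherin, was at 0.167, 0.494, 0.592 and 0.396 FPKM, higher than Luc in all 3 other libraries but under 1 FPKM in each. ZEB1 was 0.0012 of the level of ESRP1 in Luc against 0.0034 in WT, 0.0040 in 3NQ and 0.0027 in the ΔTM-labelled library. ZEB2, its relative, was listed at 0, 0, 0.105 and 0.0394 FPKM, and TWIST1, a helix-loop-helix factor, at 0.0903, 0, 0 and 0. SNAI1, another zinc finger repressor, was the only one of the 7 to pass the filter, at 1.72, 1.87, 1.36 and 1.78 FPKM, with log2 ratios of 0.08, −0.20 and 0.04. At values this low, and with depth unknown, no difference between libraries could be shown for the other 6.

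The epithelial regulators split. ESRP1, a splicing factor of epithelial transcripts, was at 144, 145, 147 and 144 FPKM, and its highest value was 1.02 times its lowest, the smallest ratio among the genes of this set with a mean of at least 5 FPKM. ESRP2, its paralog, was at 43.6, 41.1, 39.7 and 43.4 FPKM. GRHL2, a grainyhead-like factor that maintains junction genes (ENSG00000083307, chromosome 8, 102504660 to 102681954), was at 65.4 FPKM in Luc against 35.2 in WT, 50.3 in 3NQ and 80.4 in the ΔTM-labelled library. WT was the lowest and the ΔTM-labelled library the highest, at 53.9% and 123% of Luc, with log2 ratios of −0.87, −0.37 and 0.29. GRHL2 was number 101 from the lowest ratio in WT. OVOL1, a zinc finger factor that restrains EMT (ENSG00000172818, chromosome 11, 65554493 to 65564690), was at 10.4, 14.0, 9.67 and 6.89 FPKM, highest in WT and lowest in the ΔTM-labelled library. Its log2 ratios were 0.40, −0.10 and −0.53, all short of 1.5-fold. The 4 regulators had median log2 ratios of −0.037, −0.11 and −0.0037.

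**Figure D4:**
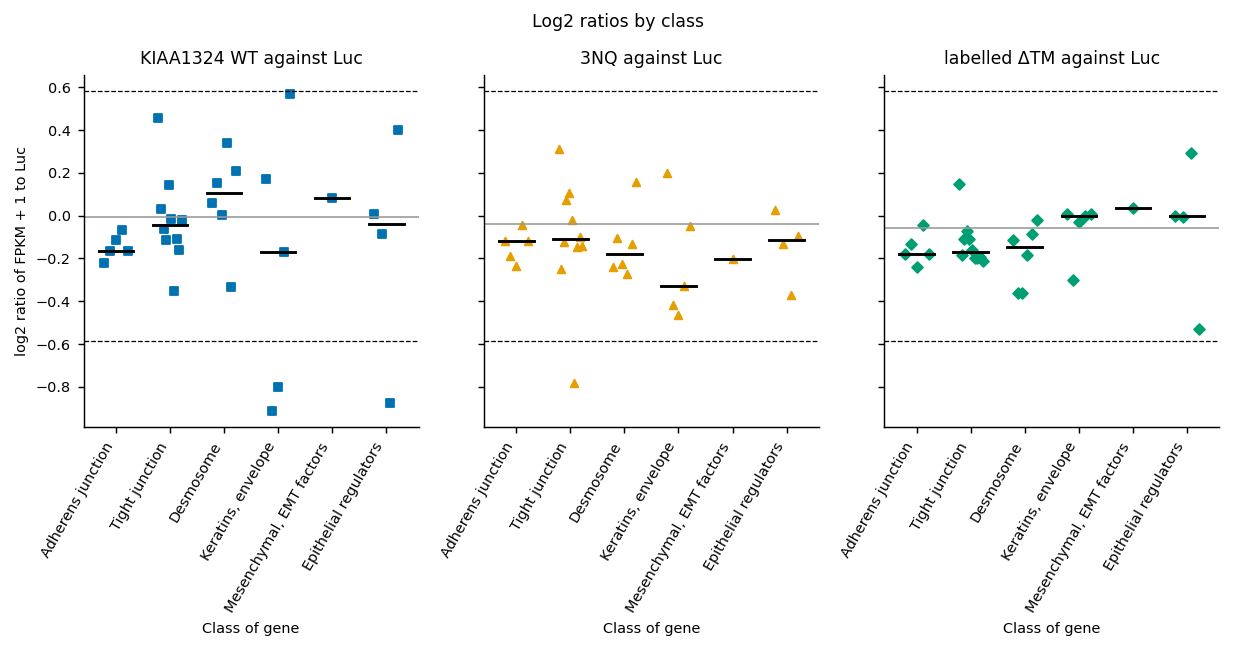
Log2 ratio to Luc of each gene passing the filter, by class, in 3 panels for WT, 3NQ and the ΔTM-labelled library. Short bars mark class medians, the grey line the median of all genes tested and dashed lines 1.5-fold; the desmosome median is above 0 in WT only.

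WT was also set against 3NQ and against the ΔTM-labelled library, comparisons that leave out Luc and were chosen after the values were seen. Against 3NQ no gene of the set was lower by 1.5-fold, beside 1.58% of all genes, and DSC2 and IVL were higher, beside 2.89%, of which IVL passed the filter only through WT and so had to be higher there. The log2 ratios of KRT8, KRT18 and GRHL2 between WT and 3NQ were −0.50, −0.34 and −0.50. Against the ΔTM-labelled library the same 3 genes were lower, beside 2.91% of all genes, at −0.62, −0.77 and −1.17. OVOL1 was higher at 0.93, beside 4.25% of all genes. Of the 6 desmosome genes 5 were higher in WT than in 3NQ (median 0.24) and 5 higher than in the ΔTM-labelled library (0.30), with PKP2 the exception in both. For all genes tested the medians were 0.025 and 0.047, and the share of them higher in WT was not computed. Both comparisons use the same WT library that was set against Luc, so they are not independent of that comparison.

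The spread over the 4 libraries was described by the ratio of the highest to the lowest value. For the 29 genes of the set with a mean of at least 5 FPKM, its median was 1.18, against 1.23 for all 9051 genes at that level. It reached 1.5 for 6 of the 29 (20.7%) and for 1164 of the 9051 (12.9%).

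Another 130 genes of the same structures were listed from general knowledge, with earlier results of these data known. Of these, 129 were in the table and 74 passed the filter. Of the 74, 5 were called lower and 2 higher in WT, 6 lower and 1 higher in 3NQ, and 3 lower and none higher in the ΔTM-labelled library. The shares of all genes called lower and higher, given above, were 3.34% and 3.36% for WT, 2.57% and 1.77% for 3NQ, and 1.57% and 1.54% for the ΔTM-labelled library. The 74 genes had median log2 ratios of −0.066, −0.17 and −0.16, against −0.0049, −0.038 and −0.060 for all genes tested. Among 13 other adherens junction genes (medians −0.12, −0.22 and −0.16), CTNNAL1, an alpha-catenin relative, was at 88.5, 49.3, 83.2 and 88.1 FPKM in Luc, WT, 3NQ and the ΔTM-labelled library. CDH3, which encodes P-cadherin, was at 94.1, 62.4, 76.0 and 83.8 FPKM, and its log2 ratio of −0.59 in WT only just reached 1.5-fold. Among 19 other tight junction genes (−0.053, −0.11 and −0.073), AMOT, an angiomotin scaffold, was the only one called, at 17.9, 10.0, 12.6 and 13.5 FPKM (log2 ratio −0.78 in WT). None of 5 other desmosome and plakin genes was called in any comparison, and their medians were −0.071, −0.17 and −0.23. In WT 1 of these 5 was above Luc and 4 were below, unlike the desmosome genes of the set.

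Of 10 other keratins passing the filter, 1 was called lower in WT, 3 in 3NQ and 2 in the ΔTM-labelled library, beside 3.34%, 2.57% and 1.57% of all genes, and none was called higher. KRT5, of the basal layer, was at 3.57 FPKM in Luc against 2.28 in WT, 0.615 in 3NQ and 0.955 in the ΔTM-labelled library, lower in the last 2 with log2 ratios of −1.50 and −1.22. It passed the filter only through Luc and WT, so it had to be below Luc in those 2, though not by 1.5-fold. The counts and medians of these keratins include it. KRT15, also basal, was at 2.54, 1.79, 1.04 and 1.28 FPKM (−0.79 and −0.64 in the same libraries). KRT13 was at 8.59, 3.77, 5.20 and 7.77 FPKM, lower in WT and 3NQ (−1.01 and −0.63). Unlike KRT8 and KRT18, KRT5 and KRT15 were lowest in 3NQ. The medians of the 10 were 0.049, −0.27 and −0.14. Of 6 other cornified envelope genes (medians 0.31, 0.17 and −0.17), SPRR1B, a small proline-rich protein, was higher in WT (4.90, 8.81, 3.26 and 4.21 FPKM, log2 ratio 0.73). Its relative SPRR2D was higher in WT and 3NQ (0.579, 2.20, 2.05 and 0.969 FPKM, 1.02 and 0.95), the libraries through which alone it passed the filter. SPRR1A passed only through 3NQ (0.948, 0.924, 1.75 and 0.633 FPKM, log2 ratio 0.50 there). The medians of WT and 3NQ thus include genes that passed only through those libraries, and they were not recomputed without them.

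The 9 other mesenchymal genes passing the filter had medians of −0.29, −0.30 and −0.26. S100A4, a calcium-binding protein of motile cells, was at 61.3 FPKM in Luc against 33.6 in WT, 33.4 in 3NQ and 60.6 in the ΔTM-labelled library. It was lower in WT and 3NQ by the same amount (log2 ratios −0.85 and −0.85). LEF1, a Wnt transcription factor, was at 6.18, 7.57, 1.90 and 5.17 FPKM and was lower only in 3NQ, at −1.31. FN1, which encodes fibronectin, was at 17.7, 14.6, 12.6 and 10.9 FPKM and was called lower only in the ΔTM-labelled library, at −0.66. Of 12 other epithelial regulators (medians −0.11, −0.23 and −0.16), GRHL3, related to GRHL2, was called lower in 3NQ, at 27.7, 20.6, 17.8 and 20.9 FPKM (−0.62).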

How the data were processed

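The authors sequenced poly(A) RNA of the 4 MKN28 libraries, filtered reads on undetermined bases and quality, aligned them with TopHat on GRCh37 and ran Cufflinks 2.1.1 for FPKM per gene, with non-coding regions masked and its corrections for multi-mapped reads and for fragment bias switched on. The deposited FPKM values are scaled for gene length and library size, and depth is unknown, so that no counting interval was given. Of a symbol with several of the 166 repeated entries, the entry with the highest mean FPKM was used. Log2 ratios of FPKM + 1 to Luc, class medians and 1.5-fold calls were computed in Python 3.11.15 (pandas 2.3.3, numpy 2.4.6) and plotted with matplotlib 3.10.9. Only the step that calls genes higher or lower was tested on simulated data, with planted changes larger than 1.5-fold. Medians, ranks and motif counts were not tested in this way. The members and lists were chosen with earlier results of these data known. Named genes were all 40 members and, of the other lists, those past 1.5-fold, at most 5 per list. SPRR1A, TAGLN, TGFBI, IMMP1L, AC025262.1 and AL022328.1 were named after their values were seen. Alternatives were pseudocounts of 0.1 and 5, thresholds of 1.3-fold and 2-fold, no filter, an FPKM filter of 5, upper quartile or median-of-ratios scaling, and the mean of 3NQ and the ΔTM-labelled library as control. Comparisons of WT with either of these alone were added after seeing the data.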

Additional observations from a re-analysis of the deposited data

How the results depend on the processing

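No paired analysis was possible because each group had 1 library, and no library could be left out for the same reason. KRT8, KRT18 and GRHL2 in WT and TJP3 in 3NQ kept their sign wherever they were recomputed, while values near 0 could change sign, as KRT18 in the ΔTM-labelled library did (−0.03 against 0.04 after median-of-ratios scaling). Upper quartile or median-of-ratios scaling moved the median of all genes to between −0.0089 and 0.015, and no scaling shifted it by over 0.1. Depth limits what can be said of genes under 1 FPKM. The median log2 ratio of the set in WT, −0.064 against Luc, was 0.064 against the mean of 3NQ and the ΔTM-labelled library, 0.049 against 3NQ and 0.047 against the ΔTM-labelled library. At 2-fold no gene of the set was lower in WT (0) or 3NQ (0), and at 1.3-fold 3 were higher in WT, 3 lower in 3NQ and 1 lower in the ΔTM-labelled library. With a pseudocount of 0.1, 1 gene was higher in WT (IVL, 1.00) and 1 lower in the ΔTM-labelled library (OVOL1, −0.59), and with 5 none (0) was lower in 3NQ, where TJP3 was at −0.54. Against the mean of 3NQ and the ΔTM-labelled library 2 were higher (IVL, 0.59; OVOL1, 0.70) and 1 lower in WT, with KRT8 at −0.56 and KRT18 at −0.57. Against 3NQ 2 were higher and 0 lower, and against the ΔTM-labelled library 1 was higher. Of the other 130 genes, those lower in WT numbered 9 with a pseudocount of 0.1, 1 at 2-fold, 12 at 1.3-fold, 2 against the mean of 3NQ and the ΔTM-labelled library and 3 against either library alone. Those higher in WT numbered 0 with a pseudocount of 5, 1 at an FPKM of at least 5 or at 2-fold, 5 against the mean of 3NQ and the ΔTM-labelled library or 3NQ, and 6 against the ΔTM-labelled library. Those lower in 3NQ numbered 3 with a pseudocount of 5, 2 at 2-fold and 17 at 1.3-fold, and those higher 2 with a pseudocount of 0.1 or at 1.3-fold and 0 with a pseudocount of 5, at 2-fold or at an FPKM of at least 5. Those lower in the ΔTM-labelled library numbered 6 with a pseudocount of 0.1, 0 with 5, 1 at an FPKM of at least 5 or at 2-fold and 11 at 1.3-fold, and those higher 1 with a pseudocount of 0.1 or at 1.3-fold. Shares of all genes called were computed only at 1.5-fold with a pseudocount of 1, against Luc, 3NQ or the ΔTM-labelled library. The counts under other settings have no such share beside them and are not a result about these genes. IVL, which passed the filter only through WT, is among the genes higher in WT at 1.3-fold and against 3NQ. The cause was not tested beyond what each setting itself changes.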
